A study of Equus caballus with 28 samples.

Results

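The microRNA eca-miR-9a was followed through the uterus and the conceptus of the mare 13 days after ovulation. It was the only entry named miR-9 or miR-9a among 690 known mature horse miRNAs, which were counted together with 154 predicted miRNAs (844 entries in all). It was chosen by its fold change and FDR between the pregnant and the cyclic endometrium in earlier results of these counts, so its values in that comparison are given as a description, without a test. The predicted miRNA that carries the number 9 in the deposited counts is another molecule, with 12 reads in 28 libraries, and is not part of this account.

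Small RNA was sequenced from 28 samples of Warmblood mares. The pregnant mares, inseminated with fresh semen of 1 stallion, gave 5 endometrial biopsies (labelled uterus), 5 samples of uterine fluid (UF), 5 embryos without their capsule and 5 samples of yolk sac (YS) fluid. The same mares in an unbred, cyclic cycle gave 4 endometrial biopsies and 4 UF samples, and mare 5 had no cyclic sample here. All mares had received hCG to induce ovulation, the age of the mares is not given in the sources used here, and UF was taken up with a tampon left in the uterus. The fluids and the tissues were extracted with different kits, so fluid and kit cannot be told apart.

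miR-9 is among the most strongly conserved animal miRNAs. It is best known from the nervous system, where it acts in neural progenitors and on the transcription factor REST, and it has also been described in the response to NF-kB and as a regulator of E-cadherin. As with other miRNAs, the bases at its 5′ end guide it to messenger RNAs whose translation or stability is then reduced. In the RefSeq gene table of the horse (assembly TB-T2T, not the build of the counts), 2 hairpins carry this name. MIR9A lies on chromosome 5 within the host gene MIR9-1HG, and MIR9A-2 lies on chromosome 14 within a long non-coding RNA, with MEF2C and TMEM161B as the nearest protein-coding genes. Reads of the mature miRNA from either hairpin could not be separated in the counts.

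A total of 6995 reads of eca-miR-9a was counted, and it was detected in 28 of 28 libraries. Its level is given in CPM, its reads scaled to the total of miRNA reads of the library, without a correction for length. Ranks and levels of different miRNAs are shares of reads. Whether they equal shares of molecules was not tested. Depth set how well a level was known. The libraries held between 280065 and 590593 miRNA reads in the pregnant endometrium, 61836 and 371630 in the cyclic endometrium, 62087 and 226308 in UF, 28204 and 44768 in the embryos, and 4352 and 14531 in YS fluid. A level of 3 reads, taken as the floor, amounted to between 5.08 and 48.5 CPM in the endometrium, 13.3 and 48.3 CPM in UF, 67.0 and 106 CPM in the embryos and 206 and 689 CPM in YS fluid. Intervals below are exact 95% binomial intervals. Like the floor, they describe counting error only, because amplified copies of 1 molecule were counted separately. Checked against miRNA markers, the embryonic miR-302 cluster, a list added after the data were seen, had 3728 reads in the embryos and 2137 in YS fluid, but 2 reads in the pregnant endometrium, 0 in the cyclic endometrium, 2 in pregnant UF and 5 in cyclic UF.

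The embryo held the highest level of eca-miR-9a. In the 5 embryos it was at 14218, 12911, 10469, 9387 and 10699 CPM for mares 1 to 5, which is between 0.939% and 1.42% of all miRNA reads, with 271 to 578 reads per library. The mean was 11537 ± 1971 CPM (SD, n = 5), and the miRNA ranked between 13 and 18 among the known miRNAs of each embryo. On this CPM scale the 5 embryos were close to each other, with a highest level 1.51 times the lowest. On the log2 scale of CPM their SD was 0.24, against a median SD of 0.67 for the 127 known miRNAs with a mean of at least 100 CPM. From the most variable down eca-miR-9a ranked 120. The closeness depends on the scale. The embryos ran from 4962 to 10853 CPM with TMM normalization over 28 libraries and from 6973 to 12715 CPM with RLE. With known miRNAs alone as the total they ran from 10278 to 22336 CPM.

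YS fluid came next on this scale, at 2769, 7264, 1760, 3447 and 2202 CPM for mares 1 to 5 (mean 3488 ± 2203, SD, n = 5). These levels rest on 15 to 105 reads, and the interval of the highest, in mare 2, was 5945 to 8787 CPM and did not reach the interval of any other YS fluid. The endometrium of pregnant mares was at 2244, 701, 1935, 1393 and 1302 CPM (mean 1515 ± 598, SD, n = 5), with 237 to 1143 reads each. In cyclic mares 1 to 4 it was at 809, 415, 3988 and 194 CPM (mean 1351 ± 1776, SD, n = 4), and without mare 3 the mean was 473 ± 311 (SD, n = 3). UF held the lowest levels, at 44.5, 226, 91.6, 72.3 and 37.9 CPM in pregnant mares 1 to 5 (mean 94.5 ± 76.6, SD, n = 5) and at 51.6, 79.5, 80.5 and 56.4 CPM in cyclic mares 1 to 4 (mean 67.0 ± 15.1, SD, n = 4). Without mare 2 the mean of pregnant UF was 61.6 ± 24.9 CPM (SD, n = 4). Only 3 to 27 reads stood behind each UF value. Pregnant UF of mare 5, with 3 reads, was at the floor, and its interval ran from 7.81 to 111 CPM.

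By median CPM the order was therefore embryo, YS fluid, pregnant endometrium, cyclic endometrium, pregnant UF and cyclic UF. Only the step from embryo to YS fluid, a ratio of medians of 3.86, separated the libraries of both groups without overlap. Each of the other 4 neighbours in this order overlapped. For pregnant endometrium and cyclic endometrium the overlap came from mares 1 and 3 of the cyclic group, and for cyclic endometrium and pregnant UF from cyclic mare 4 and pregnant mare 2. The place of YS fluid depends on the scale: after TMM normalization over 28 libraries, which corrects for a few abundant miRNAs taking up reads, its median was 987 CPM, below the 2207 CPM of the pregnant endometrium, while the embryo (6539 CPM) kept the highest median and the UF groups (125 CPM in pregnant and 97.7 in cyclic mares) the lowest.

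**Figure D1:**
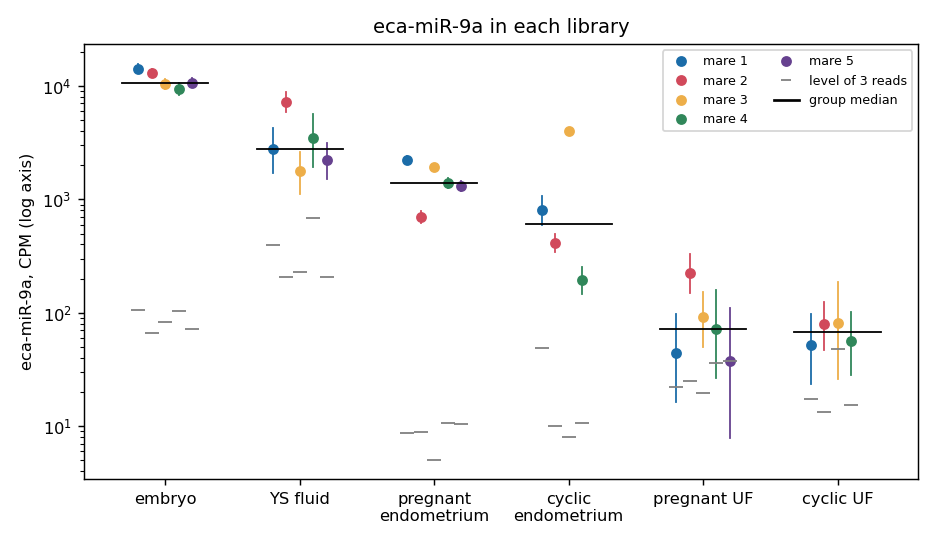
Level of eca-miR-9a in each of 28 libraries, in CPM on a log axis, by group and coloured by mare, with exact 95% binomial intervals as vertical lines, the group median as a black line and the level of 3 reads as a grey dash. The embryos sit between 9387 and 14218 CPM and the UF libraries between 37.9 and 226 CPM, and the cyclic endometrium of mare 3 stands above the 3 other cyclic biopsies.

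In the endometrium, eca-miR-9a was higher during pregnancy in 3 of the 4 mares sampled in both cycles. It was 2.78 times the cyclic level in mare 1, 1.69 times in mare 2 and 7.18 times in mare 4. Mare 3 went the other way, with 1935 CPM in the pregnant and 3988 CPM in the cyclic sample, a ratio of 0.485. The mean of the log2 ratios was 1.01 ± 1.62 (SD, n = 4), so the spread between mares was larger than the mean. In biopsies of mixed tissue, fewer cells of a type and less RNA per cell cannot be told apart.

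The fit of these 9 libraries, edgeR's quasi-likelihood model with the mare as block and TMM normalization, estimated 1.23 on the log2 scale, with a standard error of 0.30, and the block leaves mare 5 out of it. That standard error comes from a spread which the fit shared among all miRNAs, whereas the standard error of the mean over the 4 mares was 0.81. Here 13 of 386 tested miRNAs (3.37%) were called, which throughout means a change of 2 times or more at an FDR no higher than 0.05, and eca-miR-9a was among them by the choice described above. The CPM of 1.30% of the miRNAs tested did not overlap between these groups, and eca-miR-9a was not one of them. Without mare 4 its log2 fold change was 0.62 and without mare 3 it was 1.73. When mare 5 was let in by dropping the block, it was 0.30 and edgeR called 0 miRNAs, with 58 at an unadjusted p under 0.05. In a fit of 28 libraries together, also without a block, it was 0.13. In both of these fits eca-miR-9a was not called, nor was it with DESeq2 (log2 fold change 1.19), a stricter count filter (1.20) or library totals alone (0.98), nor without mare 1 (0.93) or without mare 4.

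The cyclic biopsies differed widely from each other in eca-miR-9a. The highest level was 20.6 times the lowest, and mare 3 supplied 86.6% of the 1711 reads of the 4 libraries. On the log2 scale the SD was 1.83, the largest of 129 known miRNAs that averaged 100 CPM or more, with a median SD of 0.46. Without mare 3 the SD was 1.00, and eca-miR-9a still ranked 6 of 130. In the pregnant biopsies the SD was 0.64, rank 37 of 126. Counting error was small beside these differences, since the interval was 3788 to 4196 CPM in cyclic mare 3 and 146 to 253 CPM in cyclic mare 4.

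**Figure D2:**
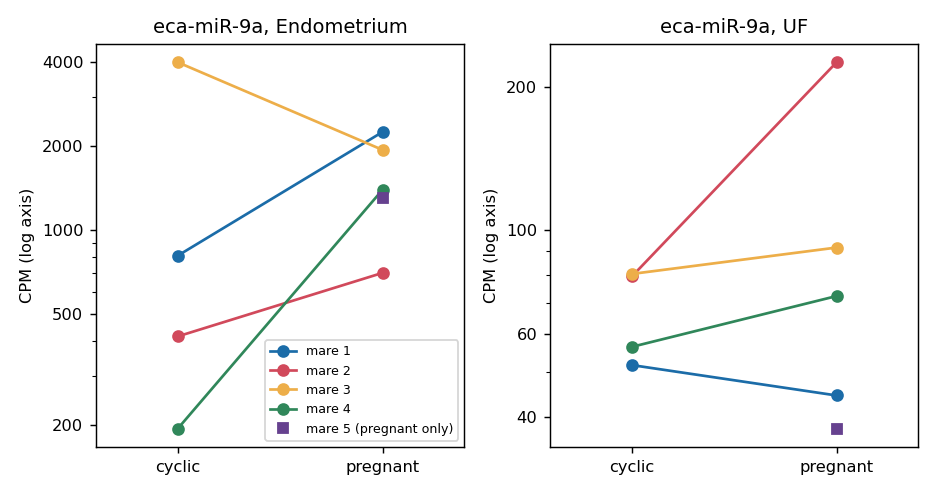
Level of eca-miR-9a in CPM (log axis) in the cyclic and the pregnant sample of each mare, for endometrium (left) and UF (right), with a line joining the samples of 1 mare and a square for mare 5, which had a pregnant sample only. The lines of mares 1, 2 and 4 rise in the endometrium and that of mare 3 falls from 3988 to 1935 CPM, while in UF mare 2 alone moves far, from 79.5 to 226 CPM.

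The cyclic biopsy of mare 3 also differed in its marker miRNAs. For the ciliated epithelium (4 of 4 entries of the miR-34/449 family detected), the summed level was 2691 CPM, against 11046 to 19164 CPM in the other cyclic biopsies. The list of leukocyte miRNAs (miR-142, miR-150 and miR-223, 4 of 4 entries) summed to 363 CPM there and to between 598 and 1807 CPM in the others. Lists for epithelium, for NF-kB-linked miRNAs and for neural miRNAs were also lowest in that library, and those for stroma, endothelium and erythrocytes lay within the range of the others. The pregnant biopsy of mare 3, with the highest eca-miR-9a after mare 1, had the lowest ciliated sum of its group (5098 CPM, others 6605 to 17171) and the lowest leukocyte sum (283 CPM, others 675 to 997). Its neural, NF-kB-linked, epithelium and endothelial sums were also the lowest. Pregnant mare 1, highest in eca-miR-9a (2244 CPM), had the median ciliated sum of its group (7587 CPM). Cyclic mare 1, next to mare 3 in eca-miR-9a (809 CPM), had the highest ciliated sum of all endometrial libraries (19164 CPM). Mare 3 was not alone at an end of several lists. The cyclic biopsy of mare 2 had the highest neural, epithelium, stromal, endothelial, leukocyte and erythrocyte sums of its group. The part of tissue composition in the eca-miR-9a level was not tested, and these sums share the library total with it. No defining marker of these 7 cell type and NF-kB lists was at 0 over the endometrial libraries, whereas miR-124 of the neural list had no read in 28 libraries.

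**Figure D3:**
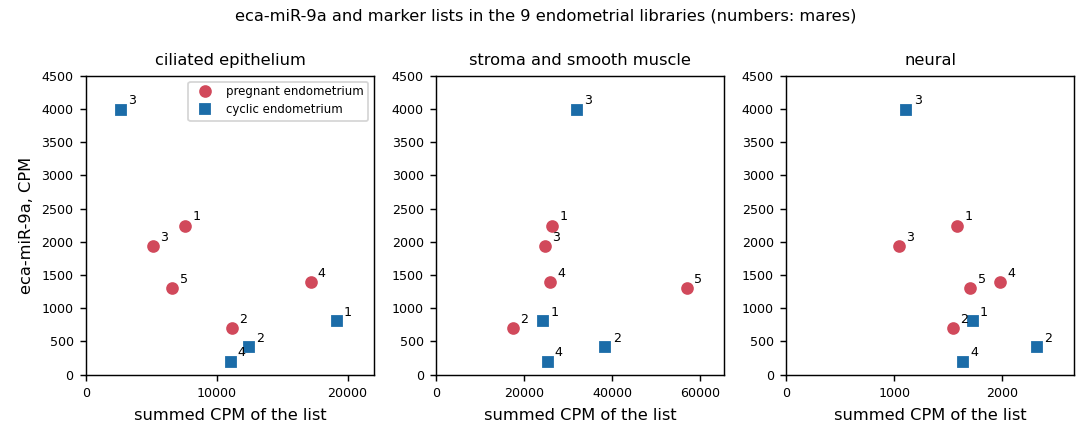
Level of eca-miR-9a (vertical axis, CPM) against the summed CPM of the marker lists for ciliated epithelium, for stroma and smooth muscle, and of the neural list, in the 5 pregnant (circles) and 4 cyclic (squares) endometrial libraries, numbered by mare. Cyclic mare 3, at 3988 CPM, has the lowest ciliated sum of all 9 libraries (2691 CPM) and a stromal sum within the range of the others. Cyclic mare 1, at 809 CPM, has the highest ciliated sum (19164 CPM).

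In UF, no difference between pregnant and cyclic mares was detectable. The ratio of the pregnant to the cyclic level of eca-miR-9a was 2.84 in mare 2, 1.28 in mare 4, 1.14 in mare 3 and 0.862 in mare 1. These ratios rest on 56 reads in all pregnant and 43 in all cyclic UF libraries, and the binomial intervals of both samples overlapped in mares 1, 3 and 4 but not in mare 2. The quasi-likelihood test of edgeR, blocked by mare, put the log2 fold change at 0.64 ± 0.59 (SE), with a 95% interval of −0.51 to 1.79 and an FDR of 0.809. Of the 305 miRNAs tested, 4.92% were called, 1.31% higher and 3.61% lower in pregnant mares, and for 0.984% the groups did not overlap. Only 2 of those called were known miRNAs, and a fit of known miRNAs alone called 3 of 220. Without the mare as block, edgeR called 0 miRNAs, with 35 at an unadjusted p under 0.05. The value leant on mare 2, without which it was 0.14. Between the endometrium of cyclic mare 3 and its UF the level went from 3988 to 80.5 CPM, and that UF stood beside 79.5 CPM in cyclic mare 2. The UF of cyclic mare 3 rests on 5 reads, with an interval of 26.1 to 188 CPM. After normalization over 28 libraries it was the highest of the cyclic UF, at 137 CPM with TMM and 162 CPM with RLE, beside 122 and 82.3 CPM in cyclic mare 2.

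The share of eca-miR-9a among miRNA reads was far lower in UF than in the endometrium around it, in the pregnant and in the cyclic cycle alike. Extraction kits differed between fluid and tissue, so fluid and kit cannot be told apart. The share was lower in UF of 5 of 5 pregnant mares, by 3.10-fold in mare 2 and by 19.3-fold to 50.4-fold in the other 4, and of 4 of 4 cyclic mares, by 3.44-fold to 49.5-fold. In pregnant mares the log2 fold change was −4.09 ± 0.52 (SE; edgeR's quasi-likelihood FDR 7.16e-05). Of 359 miRNAs tested, 33.7% were called and 20.1% were called lower in UF. In cyclic mares it was −4.69 ± 0.91 (SE; FDR 0.00112 from edgeR), where 30.8% of 328 were called and 18.9% were called lower. The cyclic value was −2.94 without mare 3. The ranges of UF and endometrium did not overlap in either cycle, as for 31.5% of the miRNAs tested in pregnant and 27.4% in cyclic mares. The first comparison uses the pregnant and the second the cyclic biopsies of the endometrial comparison above.

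Cell type lists separated in the same 2 comparisons. In pregnant mares, 4 of 4 entries of the ciliated epithelium were called higher in UF, where 13.6% of all miRNAs tested were, with sums of 47794 to 71398 CPM in UF and 5098 to 17171 CPM in the endometrium, and in cyclic mares 4 of 4 were called higher as well (11.9% of all tested). The stromal and smooth muscle list (miR-143, miR-145, miR-199 and miR-214) went down in UF, with 6 of 7 entries called lower in pregnant and 7 of 7 in cyclic mares. Of all miRNAs tested, 20.1% and 18.9% were called lower. Both arms of miR-126, the endothelial miRNA, were called lower in UF in each cycle. Of the erythrocyte list, 3 of 4 tested entries were called lower in pregnant UF and 3 of 3 in cyclic UF. eca-miR-9a was thus called in the same direction as entries of the stromal, endothelial and erythrocyte lists and opposite to the ciliated list. Other lists gave fewer calls. Leukocyte entries were called lower in 1 of 4 in pregnant and 0 of 4 in cyclic mares, and NF-kB-linked entries in 1 of 5 and 1 of 4. The epithelium and neural lists, with 9 tested entries each, had 1 called higher in pregnant and 2 in cyclic mares, and 0 lower. In the embryo the stromal list had 129 reads in 5 libraries, and the level of eca-miR-9a was highest there. Which cells held eca-miR-9a in the endometrium or in the embryo was not tested.

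The embryo exceeded the endometrium of its own mare in 5 of 5 pregnancies, by 5.41-fold to 18.4-fold in CPM. The log2 fold change was 1.61 ± 0.34 with TMM normalization (SE; edgeR's quasi-likelihood FDR 0.00141), 2.06 with RLE size factors and 2.93 with library totals alone. These scalings moved all miRNAs of the comparison together: the median of the 359 tested was −1.03, −0.56 and 0.30 in the same order. Relative to that median, eca-miR-9a was higher by 2.63, 2.61 and 2.63, a distance that a change of scaling leaves nearly fixed. Most miRNAs differed between these tissues, with 71.3% called and 28.7% called higher in the embryo (103 higher and 153 lower with TMM, 140 and 94 with library totals), so a call by itself sets eca-miR-9a little apart. With 28 libraries in 1 fit its log2 fold change was 1.29 and it was not called (FDR 0.0575, against 7.8e-07 to 0.0165 over the other alternatives).

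Against the UF that surrounded them, the embryos were higher by 57.1-fold to 319-fold in CPM. The log2 fold change was 5.28 ± 0.63 (SE; edgeR's quasi-likelihood FDR 2.12e-05), or 5.51 above the median of the 310 miRNAs tested. Of these, 68.4% were called and 29.7% were called higher and 38.7% lower in the embryo (92 higher and 120 lower, or 146 and 85 with library totals). While the embryos held the miRNA at about 1% of their miRNA reads, the 5 pregnant UF libraries held it at no more than 0.0226%.

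Within the conceptus, embryonic tissue exceeded the YS fluid of the same embryo in 5 of 5 cases, by 1.78-fold in mare 2 to 5.95-fold in mare 3. The log2 fold change was 2.33 ± 0.48 (SE; edgeR's quasi-likelihood FDR 0.0043), and 2.04 above the median of 259 tested. Of the miRNAs tested, 35.1% were called and 22.0% were called higher in the embryo (57 higher and 34 lower, or 40 and 55 with library totals). With the mare as block 54 in place of 91 miRNAs were called, eca-miR-9a among them (log2 fold change 2.55). The ranges of both groups did not overlap, which held for 17.4% of the miRNAs tested.

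YS fluid and UF also differed. Both were extracted with the same kit, but UF was taken up with a tampon and YS fluid was aspirated with a needle. Fluid and way of collection therefore cannot be told apart. YS fluid was higher by 19.2-fold to 62.2-fold in 5 of 5 mares. The log2 fold change was 3.50 ± 0.66 (SE; edgeR's quasi-likelihood FDR 0.000338) and 4.04 above the median of the 277 tested. Here 59.6% were called and 23.5% were called higher and 36.1% lower in YS fluid (65 higher and 100 lower, or 114 and 52 with library totals). The ranges of both fluids did not overlap, as for 46.6% of those tested. The depth of YS fluid, 4352 to 14531 reads, was below that of UF in every mare.

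No direction could be given for YS fluid against the pregnant endometrium. In CPM the YS fluid was higher in 4 of 5 mares, by 1.23-fold to 10.4-fold, and lower in mare 3 (0.910). With TMM normalization the log2 fold change was −0.84 ± 0.47 (SE; 95% interval −1.83 to 0.16, edgeR's quasi-likelihood FDR 0.145), with RLE size factors −0.01 and with library totals alone 1.22, where eca-miR-9a was called higher (FDR 0.0303). It was itself the median of the 341 miRNAs tested with TMM, and 0.05 above the median with library totals. In this comparison 53.1% of miRNAs were called (61 higher and 120 lower in YS fluid, or 119 and 59 with library totals). Without mare 2, the library with the highest YS fluid level, the log2 fold change was −1.86 and eca-miR-9a was called lower (FDR 0.000652, over a range of 0.0303 to 0.992 for the other alternatives).

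**Figure D4:**
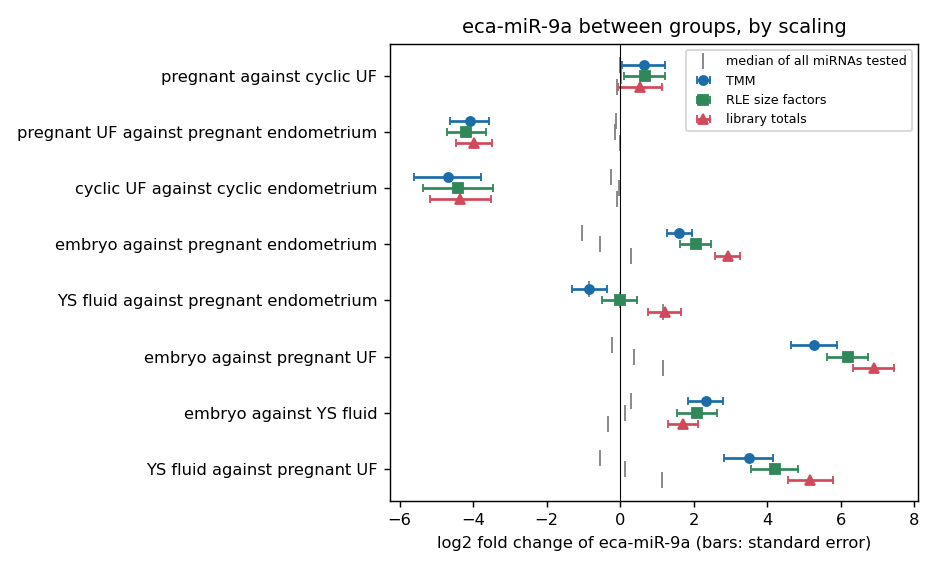
Log2 fold change of eca-miR-9a with its standard error in 8 comparisons, under TMM normalization, RLE size factors and library totals alone, with the median of all miRNAs tested as a grey tick. Between YS fluid and pregnant endometrium the value turns from −0.84 to 1.22 together with the median. In the 3 comparisons with embryo the value also moves with the median, and lies 1.97 to 5.82 above it. A change of scaling shifts all miRNAs of a comparison nearly alike, so the distance to the median can hardly change.

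Mare 2 stood at an end of the range in several compartments. Its YS fluid (7264 CPM) and its pregnant UF (226 CPM) were the highest of their groups, and its pregnant endometrium (701 CPM) was the lowest. In that UF, with 27 reads, the NF-kB-linked list had its highest sum of the pregnant UF libraries (146905 CPM, others 84403 to 131225). The ciliated sum (47794 CPM, others 54619 to 71398) and the erythrocyte sum (519 CPM, others 554 to 3246) were the lowest. The lists for neural miRNAs, epithelium, stroma, endothelium and leukocytes lay within the range of the others, and the miR-302 cluster had 0 reads. Other libraries of this group were at an end of several lists as well. The pregnant UF of mare 1 had the lowest NF-kB-linked, stromal, endothelial and leukocyte sums and the highest neural and epithelium sums. The part of these lists in the level of eca-miR-9a was not tested.

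Of the 150 other known miRNAs with a mean of at least 100 CPM, eca-miR-7 was most like eca-miR-9a over the 28 libraries, with a Spearman's rho of 0.81. It was followed by eca-miR-103 (0.78), eca-miR-148b-3p (0.78), eca-miR-107a (0.77) and eca-miR-148a (0.76), and the median over the 150 was 0.18. These correlations describe libraries that differ in tissue and depth. eca-miR-103 and eca-miR-107a are nearly the same molecule, and the counting could have divided their reads. eca-miR-7, another miRNA known from neurons and endocrine cells, was at 3677 ± 1103 CPM in the embryo (SD, n = 5), 2201 ± 1897 in YS fluid (SD, n = 5) and 246 ± 32.2 in the pregnant endometrium (SD, n = 5). In pregnant UF it was at 213 ± 87.1 CPM (SD, n = 5). In UF the values of both miRNAs were apart. The log2 fold change of eca-miR-7 between pregnant UF and endometrium was −0.34 ± 0.37 (SE; edgeR's quasi-likelihood FDR 0.50), beside −4.09 for eca-miR-9a, and the difference between both was not tested. In the cyclic endometrium eca-miR-7 lay between 233 and 284 CPM, with 277 CPM in mare 3, where eca-miR-9a was 4.93 times the highest of the other mares.

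Within the 9 endometrial libraries likeness was weak. The highest values of rho, among 126 known miRNAs, were 0.55 for eca-miR-214, 0.53 for eca-let-7a, 0.52 for eca-miR-101, 0.52 for eca-miR-26a and 0.48 for eca-miR-155. With Pearson's r in place of rho, 3 of these 5, and 3 of the 5 over all libraries, remained among the leading 5.

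**Figure D5:**
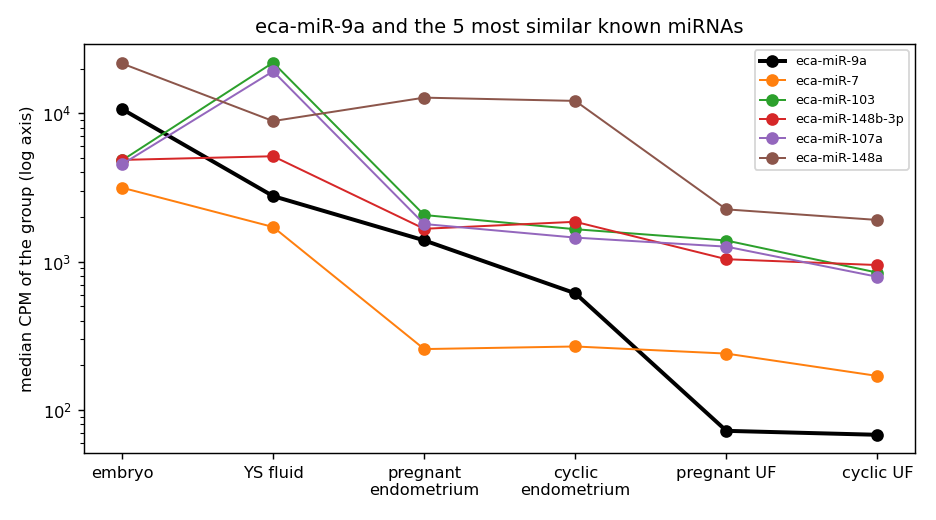
Median CPM (log axis) of eca-miR-9a and of the 5 known miRNAs most like it over 28 libraries, in the 6 groups. eca-miR-9a falls from 10699 CPM in the embryo to 68.0 CPM in cyclic UF, while eca-miR-7 falls from 3156 CPM in the embryo to 268 CPM or below in the endometrial and UF groups.

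Other miRNAs known from the nervous system summed to 5265 to 9181 CPM in the embryos and 4825 to 12107 CPM in YS fluid. The sums were lower, without overlap, in the endometrium (1045 to 1982 CPM in pregnant and 1114 to 2325 in cyclic mares) and in UF (1844 to 2234 and 1578 to 2926 CPM). A large part of them was eca-miR-7, which is on this list. It was at 2875 to 5584 CPM in the embryos and 842 to 5465 CPM in YS fluid. The sums therefore do not describe the list as a whole, and no separation is claimed for its other entries. The list held 12 names with 14 entries, of which 13 had a read. miR-124, the miRNA most closely tied to mature neurons, had no read in any library, which in the embryos allows a level of up to 67.0 to 106 CPM. Against the pregnant endometrium, 9 entries were tested in the embryo, and eca-miR-7 and eca-miR-138 were called higher, while eca-miR-132, eca-miR-212 and eca-miR-218 were called lower. Among all miRNAs tested, 28.7% were called higher and 42.6% lower, so these counts set the list little apart. With library totals alone, eca-miR-128 was also called higher and eca-miR-218 was not called. The median log2 fold change of the 9 was −0.42, beside −1.03 for all miRNAs tested. eca-miR-138 was at 234 ± 161 CPM in the embryo (SD, n = 5), with 42 reads, and had 0 reads in the pregnant endometrium and in UF. The synaptic miRNAs eca-miR-132 and eca-miR-212 had 0 reads in the embryos. In UF of pregnant mares, eca-miR-137 was called higher than in the endometrium, with 28 reads against 1. Between pregnant and cyclic samples, none of 9 neural entries tested passed in either endometrium or UF (0 called in each), where 3.37% and 4.92% of all miRNAs tested were called, most of them predicted entries. Those counts are from edgeR's quasi-likelihood test; at an unadjusted p under 0.05 it gave 1 entry in the endometrium (eca-miR-132) and 0 in UF, and DESeq2 called 0 in both.

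Of the NF-kB-linked miRNAs (miR-21, miR-146a, miR-146b and miR-155, 5 entries), eca-miR-146b-5p alone was called between pregnant and cyclic endometrium (3.37% of all tested), higher in pregnant mares, and with library totals alone it was not called. Most miRNAs called in that comparison were predicted entries. The median log2 fold change of the 5 was 0.97, beside 0.08 for all miRNAs tested. eca-miR-155, at 0.97 (edgeR's quasi-likelihood FDR 0.00523), fell short of the change of 2 times only. In the embryo, 4 of 4 tested entries of this list were called lower than in the pregnant endometrium (42.6% of all tested), with a median log2 fold change of −5.74, while eca-miR-9a was higher. With RLE size factors or library totals alone eca-miR-21 was no longer called and 3 of 4 were lower. eca-miR-155 was at 106 ± 43.1 CPM in the embryo and at 2431 ± 378 CPM in the pregnant endometrium (SD, n = 5 each). The leukocyte list had 4 reads in the 5 embryos and 0 in the 5 YS fluids.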

How the data were processed

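Small RNA libraries were sequenced by the authors as single reads on an Illumina MiSeq, trimmed with cutadapt 1.11 and counted with the miRPro pipeline against miRBase and the horse genome EquCab2.0. The values deposited are whole-number counts of reads per known or predicted mature miRNA and library, without normalization. A precursor table was not used here.

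Counts were divided by the known and predicted miRNA reads of the library (CPM). Groups were compared with edgeR 4.0.16 in R 4.3.3, using TMM normalization and the quasi-likelihood test, on miRNAs with at least 1 CPM in as many libraries as the smaller group holds. miRNAs were called at a Benjamini-Hochberg FDR no higher than 0.05 with a change of 2 times or more. Pregnant and cyclic samples were fitted with the mare as block, the other comparisons without it. Sample names carry a number, which was read as the mare, because the study describes each mare as its own control. Deviations of same-mare samples correlated by 0.158 on average in the endometrium and 0.254 in UF (different mares −0.0401 and −0.0632). The comparisons share libraries, above all those of the pregnant samples, and are not independent. The code was tested on simulated data.

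Alternatives were DESeq2 1.42.0, a likelihood ratio test, other scalings and filters, known miRNAs alone, 28 libraries in 1 fit, the block, and leaving out each mare. Scaling by library totals alone and the embryo markers were added after seeing the data. The miRNA and the lists were chosen with earlier results of these data known. The miRNAs named as most like eca-miR-9a were the leading 5 by Spearman's rho on CPM among known miRNAs with a mean of at least 100 CPM. Mature sequences were not used here, so no grouping by seed was made.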

Additional observations from a re-analysis of the deposited data

Results flagged for a closer look

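In 6 groups of 4 or 5 libraries, the highest and lowest eca-miR-9a level was set against the nearest other level of its group (Dixon's criterion, which chance meets in about 1 in 20 groups). The cyclic endometrium of mare 3 lay far from the others at 3988 CPM, with a gap that took up a share of 0.838 of the range of its group. The pregnant UF of mare 2 did so at 226 CPM, with a share of 0.714, on 27 reads. On the log2 scale the shares were 0.528 and 0.506 and neither library passed the criterion. The marker lists that were highest or lowest in each of these libraries are given above, and their part in these levels was not tested.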

How the results depend on the processing

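The sign of the eca-miR-9a log2 fold change stayed the same under every alternative run, except between YS fluid and pregnant endometrium, where library totals alone turned it to 1.22 and leaving out 1 mare gave −1.86 to −0.50. Between pregnant and cyclic endometrium, on which eca-miR-9a was chosen, a kept sign is no support. Values there went down to 0.30 ± 0.68 (SE) without the block and 0.13 ± 0.62 (SE) in the fit of 28 libraries. In UF the value was 0.14 ± 0.81 (SE) without mare 2. These 3 values cannot be told from 0. The call of eca-miR-9a between pregnant and cyclic endometrium was lost under the alternatives named above. Between embryo and pregnant endometrium, the fit of 28 libraries gave 1.29 and lost the call, the cause of which was not tested. Mean levels moved with scaling, to 7005 CPM (TMM), 9353 CPM (RLE) and 13813 CPM (known miRNAs as total) in the embryo, 1389 CPM (TMM) in YS fluid, 2622 and 2403 CPM (TMM) in the pregnant and cyclic endometrium, and 98.8 CPM (TMM) and 91.7 CPM (RLE) in cyclic UF. With the replicate block, the log2 fold change was −4.25 and −3.47 for UF against endometrium in pregnant and cyclic mares and 1.69, −0.94, 5.63 and 3.49 for embryo and YS fluid against endometrium and against UF, and no call of eca-miR-9a changed. Counts of called miRNAs moved by over 1.5 times as follows. Between pregnant and cyclic endometrium 13 became 3 with a stricter count filter, 2 with known miRNAs alone and 0 in the fit of 28 libraries (23 at an unadjusted p under 0.05). Between pregnant and cyclic UF 15 became 0 (19 unadjusted), 3 and 2, and 2 to 26 when 1 mare was left out. The stricter filter, which tests fewer miRNAs, gave 75 in place of 121 for pregnant UF against endometrium, 140 in place of 256 for embryo against endometrium, 101 in place of 212 for embryo against UF, 40 in place of 91 for embryo against YS fluid and 90 in place of 165 for YS fluid against UF. For embryo against YS fluid the count was 140 in the fit of 28 libraries and 40 to 74 when 1 mare was left out. Levels in YS fluid and UF rested on few reads.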
